A study of Mus musculus with 4 samples.

Results

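The genes described are Spp1, which encodes osteopontin, Cd44, and the galectin genes Lgals1, Lgals3, Lgals8 and Lgals9. They were chosen by name, with earlier results of these data in view, and all 6 were found among the 26207 genes of the table. Mouse T helper 2 (Th2) cells, with spleen named as their tissue, were profiled by bulk RNA-seq in 4 libraries, of which 2 received phosphate-buffered saline (PBS) and 2 received dopamine at 10 µM. Dopamine is a catecholamine, and the title of the study concerns sympathetic nerves of the lung and resident memory Th2 cells. No source used here gives the mouse strain, the age, the time of exposure or the way the cells were made Th2. Nothing in the labels ties the libraries of a group to separate animals or cultures, so p-values cover the spread of these 4 libraries alone, and that spread may be technical.

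Osteopontin is a secreted phosphoprotein that binds integrins through an Arg-Gly-Asp motif and binds CD44. CD44 is a cell surface glycoprotein best known as a receptor for hyaluronan, and it marks activated and memory T cells. Galectins are lectins that bind beta-galactosides on glycoproteins. They leave cells without a signal peptide, and on T cells they are known to bind CD45, CD43 and TIM-3 and to alter adhesion and survival.

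Values are the authors' normalized read counts, that is reads per gene divided by a size factor for each library. The libraries of each group are called A and B. Log2 fold changes give dopamine minus PBS after the transformation log2(value + 1), with limma's standard error (SE) and 95% interval. That SE, and the interval and p-value built on it, rest mostly on spread pooled over genes rather than on the gene's own libraries. A gene is called higher or lower where limma's adjusted p over all 26207 genes is below 0.05. For the 6 genes the contrast had been seen when they were chosen, so their fold changes and calls are a description and no p-value is given. The lists of partner genes (receptors, ligands and enzymes around the 6) and of markers were also chosen with earlier results of these data known. Up to 4 partners per list are named for their smallest p. Adjusted p-values of partners are thus a description too, not independent support. The libraries held 5717408 to 14167357 reads assigned to genes, and the shallowest was PBS A. Transcripts of helper T cells were present throughout, with the 6 markers summing to 23427 and 24887 in PBS and 25935 and 26597 in dopamine. Of 5 Th2 markers the cytokine genes Il4, Il5 and Il13 were called higher in dopamine, Il1rl1, the IL-33 receptor gene, was called lower (log2 fold change -0.91), and Gata3, the lineage factor gene, was not called (-0.08). Counts of calls in a list, here and below, stand beside 14.3% of all genes called higher and 7.00% called lower. Among markers of other cells, 8 of 9 for basophils and mast cells, 4 of 7 for neutrophils, 3 of 4 for red cells and 4 of 8 for stroma and endothelium were called lower. Only 1 neutrophil, 1 red cell and 1 stroma marker had a mean of at least 20, so most calls in those lists rest on low counts. Of 6 dendritic cell markers 1 was called lower, and of 5 markers of CD8 T and NK cells 1, Cd8a, was called higher.

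Of the 6 genes, 4 were called higher with dopamine (Spp1, Cd44, Lgals1 and Lgals3), Lgals9 was called lower, and Lgals8 was not called. Over all genes 14.3% were called higher and 7.00% lower, and among the 8492 genes with a mean of at least 100, to which all 6 belong, 39.1% were called higher and 7.90% lower. The median log2 fold change was 1.08 over the 6 genes, -0.08 over all genes and 0.20 over the genes with a mean of at least 100. The dopamine and PBS libraries did not overlap for any of the 6 genes, which also held for 58.9% of all genes and for 76.3% of those with a mean of at least 100. Because the 6 genes were chosen on this contrast, nothing is read from these counts.

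Spp1 had the largest difference of the 6. Its normalized counts were 294 and 362 in PBS A and B and 1415 and 1271 in dopamine A and B, so both dopamine libraries stood far above both PBS libraries. The means were 328 ± 48.5 (SD, n = 2) and 1343 ± 102 (SD, n = 2), a ratio of 4.09, with a log2 fold change of 2.04 (SE 0.10, 95% interval 1.84 to 2.23). Counted from the highest log2 fold change, Spp1 was number 13 of the 8492 genes with a mean of at least 100. These values rest on 173 to 1834 reads per library. Spp1 lies on chromosome 5 from 104435118 to 104441050 on the plus strand (mm10, GENCODE M21). A model of unknown coding status on the same strand, Gm42793, overlaps it by 1252 bases and was itself at 1.53 to 5.40 normalized counts.

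The stretch before the Spp1 start is shown because Spp1 changed most, and those of Lgals3 and Lgals9 because these galectin genes moved in opposite directions. Each is the 250 bases before the start in RefSeq (GRCm38.p6, the mm10 assembly), 5′ to 3′ on the strand of the gene. For Lgals3 the RefSeq start lies inside the gene's GENCODE bounds (47367751 to 47386160). The Lgals3 stretch is therefore within the gene, not before its outermost annotated start. Capitals mark matches, on either strand, to any of 6 motifs chosen after the sequences had been seen: AP-1 (TGANTCA), CRE (TGACGTCA), the core of the interferon-stimulated response element (GAAA, any 2 bases, GAAA), RUNX (AACCACA), T-box (TCACACCT) and Sp1 (GGGCGG).
Spp1, chr5:104434861-104435110, plus strand: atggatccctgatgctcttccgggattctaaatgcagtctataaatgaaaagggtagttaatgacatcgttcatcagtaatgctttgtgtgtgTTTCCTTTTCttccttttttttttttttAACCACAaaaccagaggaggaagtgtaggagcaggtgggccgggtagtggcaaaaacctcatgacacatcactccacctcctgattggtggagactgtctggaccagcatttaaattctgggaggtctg
Lgals3, chr14:47373610-47373859, plus strand: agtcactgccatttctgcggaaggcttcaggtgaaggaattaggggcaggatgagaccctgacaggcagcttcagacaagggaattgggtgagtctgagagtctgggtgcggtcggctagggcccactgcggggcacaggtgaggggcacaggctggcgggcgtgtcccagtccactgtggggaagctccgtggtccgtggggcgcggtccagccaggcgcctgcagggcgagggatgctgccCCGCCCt
Lgals9, chr11:78984925-78985174, minus strand: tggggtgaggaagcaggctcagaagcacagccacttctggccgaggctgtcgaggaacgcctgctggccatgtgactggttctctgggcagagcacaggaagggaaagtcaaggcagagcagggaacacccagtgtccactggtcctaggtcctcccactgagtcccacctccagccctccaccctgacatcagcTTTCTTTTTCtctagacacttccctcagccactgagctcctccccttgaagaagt

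The Spp1 stretch held a RUNX match 129 to 123 bases before the start and a match to the interferon response core 157 to 148 bases before it, on the other strand. In Lgals9 the interferon response core matched 55 to 46 bases before the start, and Lgals3 held an Sp1 match 7 to 2 bases before it. Of 32851 promoter stretches of the same length, 2.98% held the interferon response core, 4.40% the RUNX motif and 32.7% the Sp1 motif. A further 6.75% held AP-1, 1.55% CRE and 1.12% the T-box motif. None of the 6 was found in the stretches of Cd44 and Lgals8 or before a second Spp1 start listed downstream. The Lgals8 stretch (12461739 to 12461988) also lies inside the gene's GENCODE bounds (12439415 to 12464944). So does the second Spp1 stretch (104435942 to 104436191) within those of Spp1 (104435118 to 104441050). The Lgals9 stretch begins at 78984925 and its gene reaches 78984946, so the bases nearest the start overlap the gene. The marked matches did not overlap. These are matches of letters, and binding was not measured. RefSeq entries were matched for 5 of the 6 genes.

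**Figure D1:**
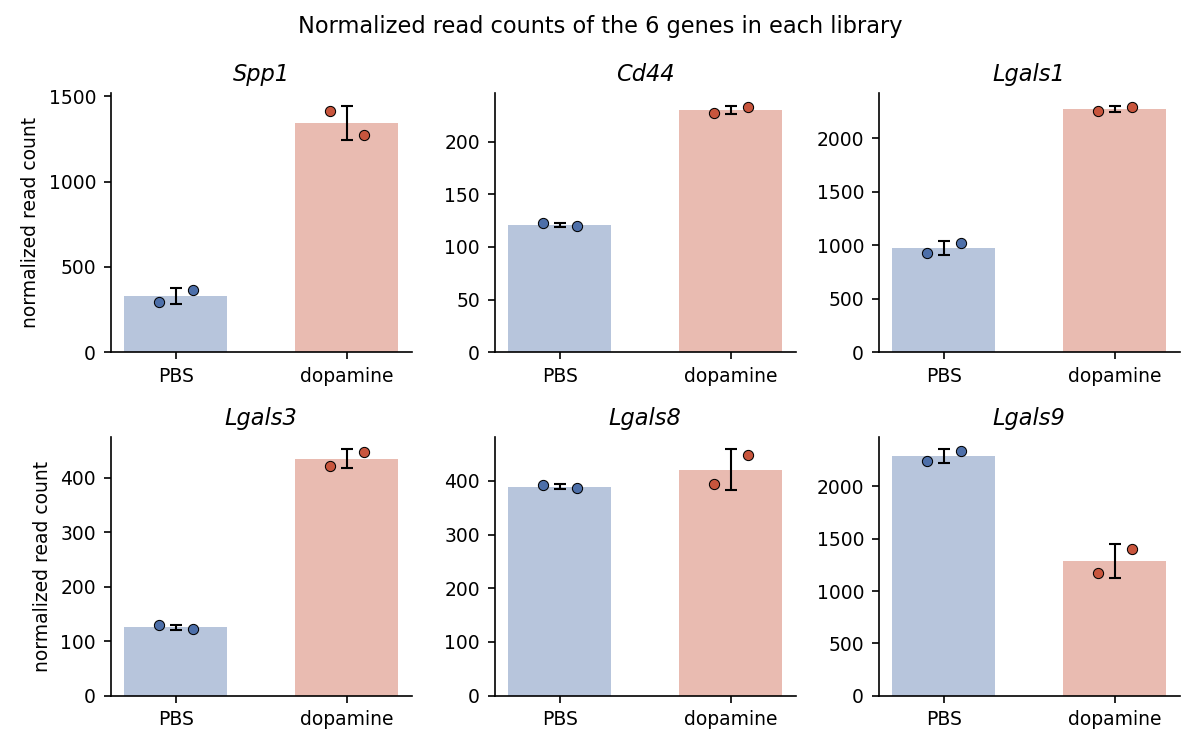
Normalized read counts (y axis, linear from 0, a scale for each gene) in the PBS and dopamine libraries (x axis). Points are libraries, bars are means and error lines are the SD of 2 libraries. Spp1, Cd44, Lgals1 and Lgals3 sit higher with dopamine, Lgals9 sits lower, and for Lgals8 dopamine A (393) lies next to PBS A (392).

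The known receptors of osteopontin went in different directions. Of 9 integrin chains that form its receptors, 2 rose, 1 fell and 6 were not called, with a median log2 fold change of 0.28. Itgb1, the beta 1 chain shared by many matrix receptors, went from 1546 and 1664 to 2874 and 2769 (log2 fold change 0.81, SE 0.07, limma adjusted p = 1.81e-12). Itgav, the alpha V chain, went from 440.0 and 482 to 763 and 759 (0.72, SE 0.10, limma adjusted p = 7.48e-08). Both dopamine libraries were above both PBS libraries for each of these chains. Itgb3, the beta 3 chain that pairs with alpha V in the classical osteopontin receptor, moved the other way, from 1223 and 1257 to 536 and 630 (-1.09, SE 0.09, limma adjusted p = 2.67e-13). Beta 3 is also the partner of Itga2b on platelets, and 6 of 6 platelet markers were called lower, with a summed level of 1355 to 1558 in PBS and 404 to 457 in dopamine. Their part in the fall of Itgb3 was not tested. In bulk libraries fewer cells of a type and less RNA per cell cannot be told apart.

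The alpha chains that pair with beta 1 to bind the cryptic site of osteopontin were not called. Itga4 was at 136 and 181 in PBS and 130 and 147 in dopamine (log2 fold change -0.18, SE 0.15), and Itga9 was at 42.5 and 50.6 and at 62.5 and 57.3 (0.36, SE 0.22). Itga5 had a log2 fold change of 0.47 (SE 0.23, limma adjusted p = 0.147).

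Of 10 other genes around osteopontin, covering its relatives, processing enzymes and regulators, 1 rose, 1 fell and 8 were not called. Tbx21, which encodes T-bet, a Th1 lineage factor known to drive Spp1 in T cells, went from 685 and 641 to 1237 and 1360 (log2 fold change 0.97, SE 0.09, limma adjusted p = 2.76e-12). Its dopamine libraries were both well above its PBS libraries. Runx2, which drives Spp1 in bone, was at 22.1 and 26.8 in PBS and 16.2 and 9.71 in dopamine (-0.90, limma adjusted p = 0.0799). Tgm2, a transglutaminase that crosslinks osteopontin, had a log2 fold change of -0.45 (limma adjusted p = 0.0922). Both were called lower in 1 of 3 edgeR settings, TMM scaling after a low-count filter (adjusted p = 0.0476 for Runx2 and 0.0314 for Tgm2), after rescaling on abundant genes (0.04 and 0.0118) and with the replicate block (0.0486 and 0.0422). Dspp, a gene of the same family of tooth and bone matrix proteins, was called lower from 13.6 and 3.83 to 1.54 and 0 normalized counts, which are a few reads. The Dspp call ended without PBS A (log2 fold change -1.60), without dopamine B (-1.72) and with a pseudocount of 0.1 (adjusted p = 0.0879). Mepe and Mmp7 were not analysed here.

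Cd44 was higher in both dopamine libraries. Its normalized counts were 122 and 120 in PBS A and B and 228 and 233 in dopamine A and B, with group means of 121 ± 1.97 (SD, n = 2) and 230.3 ± 3.86 (SD, n = 2), a ratio of 1.90. The libraries within a group lay close together and the groups were clearly apart. The log2 fold change was 0.92 (SE 0.14, 95% interval 0.64 to 1.21), number 135 from the highest among the genes with a mean of at least 100. It has the widest interval of the 6, and its values rest on 72 to 295 reads per library. Cd44 lies on chromosome 2 from 102811141 to 102901665 on the minus strand, with 9 annotated transcripts, and a count per gene cannot tell its splice forms apart.

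Hyaluronan and the other ligands of CD44 were read from 13 genes, of which 3 rose, 1 fell and 9 were not called. Tmem2, which encodes a cell surface hyaluronidase, went from 136 and 154 to 420 and 482 (log2 fold change 1.63, SE 0.12, limma adjusted p = 2.76e-14). Srgn, encoding serglycin, a granule proteoglycan that binds CD44, went from 6932 and 6412 to 11516 and 11198 (0.77, SE 0.06, limma adjusted p = 9.19e-15). In both genes the groups were separated by more than their spread. Hyal2, another hyaluronidase, rose by 0.70 on the log2 scale, a call that ended without PBS A (0.52), without dopamine B (0.56) and in DESeq2 (0.67, adjusted p = 0.0688). Vcan, encoding the matrix proteoglycan versican, fell from 74.7 and 51.3 to 20.8 and 26.2 (-1.37, limma adjusted p = 8.61e-05). The hyaluronan synthase genes were low. Has1 was at 1.70 and 2.3 in PBS and 6.94 and 3.88 in dopamine, Has2 at 6.79 and 15.3 and at 3.09 and 3.88, and Has3 at 23.8 and 26.0 and at 33.9 and 35.0, and limma called none of them, while edgeR without a filter called Has2 lower (adjusted p = 0.0343). Cemip2, the later symbol of Tmem2, has no row of its own here, and Tnfaip6 was not analysed here.

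Of 17 genes for CD44 partners, shedding proteases and splicing factors, 4 rose, 2 fell and 11 were not called, with a median log2 fold change of -0.04. After rescaling the libraries to a common median over abundant genes (mean of at least 100), 2 of them rose and 6 fell. On that scaling 6.89% of all genes were called higher and 12.0% lower, beside which all rescaled counts stand. The proteins ezrin, radixin and moesin tie the tail of CD44 to actin. Ezr was at 4045 and 4171 in PBS and 3907 and 4166 in dopamine (log2 fold change -0.03), and Msn at 3187 and 3511 and at 3145 and 3223 (-0.07), neither called. Rdx went from 3160 and 3186 to 3879 and 3807 (0.28, limma adjusted p = 9.93e-04). These 3 calls depend on the scaling: after that rescaling, Ezr (-0.22) and Msn (-0.27) were called lower and Rdx (0.08) was not called. Msn was also called lower in 1 of 3 edgeR settings (TMM scaling after a low-count filter, -0.18). Nf2, encoding merlin, which competes with these linkers, went from 535 and 598 to 754 and 912 (0.55, limma adjusted p = 1.98e-05). Cd74, which can pair with CD44 as the receptor for the cytokine MIF, went from 100.2 and 87.3 to 166 and 173 (0.85, limma adjusted p = 4.47e-05). Cd74 is abundant in B cells, and of 9 B and plasma cell markers 5 were called higher and 0 lower, with sums of 188 to 231 in PBS and 452 to 456 in dopamine. Their part in the Cd74 value was not tested. Ank3, encoding an ankyrin, fell by 1.15 on the log2 scale, a call that ended without PBS A (-0.86).

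Markers read beside CD44 to place T cells as naive, activated or memory also differed. Of 7 such genes, 3 rose, 1 fell and 3 were not called, and after rescaling on abundant genes 2 rose and 2 fell. Ccr7, the chemokine receptor that guides T cells into lymph nodes, fell by 0.58 on the log2 scale (limma adjusted p = 5.22e-07). Il7r (1.63) and Il2ra (0.51), cytokine receptor genes of memory and of activation, were called higher. Il2rb, encoding the beta chain shared by the IL-2 and IL-15 receptors, was also called higher (0.34, limma adjusted p = 2.35e-04), but not after rescaling on abundant genes (0.15), without PBS A (0.32) or without dopamine B (0.21).

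The galectin genes split. Lgals1 encodes galectin-1, a single-domain galectin known to restrain effector T cells, and its normalized counts were 927 and 1017 in PBS A and B and 2253 and 2295 in dopamine A and B. The means were 972 ± 63.6 (SD, n = 2) and 2274 ± 29.7 (SD, n = 2), a ratio of 2.34, with a log2 fold change of 1.23 (SE 0.08, 95% interval 1.07 to 1.38). Both dopamine libraries were above both PBS libraries by far more than the libraries of a group differed. Lgals1 lies on chromosome 15 from 78926725 to 78930465 on the plus strand and overlaps no other annotated gene.

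Lgals3 encodes galectin-3, the galectin with a collagen-like tail that lets it form lattices at the cell surface. It stood at 129 and 123 in PBS and at 422 and 447 in dopamine. The means were 126 ± 4.61 (SD, n = 2) and 434 ± 17.4 (SD, n = 2), a ratio of 3.45, with a log2 fold change of 1.78 (SE 0.13, 95% interval 1.53 to 2.03). Counted in the same way as Spp1, from the highest down, it was number 22 of the 8492 genes with a mean of at least 100, against number 68 for Lgals1. Lgals3 lies on chromosome 14 from 47367751 to 47386160 on the plus strand.

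Lgals3 and Spp1 are also abundant in macrophages. Of 11 macrophage and monocyte markers 0 were called higher and 3 lower, with sums of 192 and 214 in PBS and 96.4 and 91.3 in dopamine. Only 2 of the 11 had a mean of at least 20, and Fcgr1 and C1qb were at 0 in at least 1 library, so this list says little. The part of these cells in the Lgals3 and Spp1 values was not tested.

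Lgals9 encodes galectin-9, a galectin with tandem carbohydrate-binding domains known as a ligand of TIM-3 and of CD44. Its normalized counts were 2242 and 2335 in PBS A and B and 1175 and 1401 in dopamine A and B. The means were 2289 ± 65.7 (SD, n = 2) and 1288 ± 160.0 (SD, n = 2), a ratio of 0.563, with a log2 fold change of -0.83 (SE 0.08, 95% interval -0.99 to -0.68). The dopamine libraries lay further apart than the PBS libraries, and both were below both PBS libraries. Counted from the lowest log2 fold change, Lgals9 was number 144 of the genes with a mean of at least 100. It lies on chromosome 11 from 78962974 to 78984946 on the minus strand. Marker lists of other cells differed in both directions. Basophil and mast cell markers summed to 2633 and 2243 in PBS and 898 and 824 in dopamine, and platelet markers to 1558 and 1355 and to 457 and 404. B and plasma cell markers summed to 231 and 188 in PBS and 456 and 452 in dopamine. The part of any of these cells in the Lgals9 value was not tested.

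Lgals8 encodes galectin-8, the other tandem galectin, known to mark damaged vesicles. It was at 392 and 386 in PBS and 393 and 448 in dopamine, so dopamine A was level with the PBS libraries. The means were 389 ± 4.42 (SD, n = 2) and 421 ± 38.3 (SD, n = 2). The log2 fold change was 0.11 (SE 0.11, 95% interval -0.11 to 0.32) and turned to -0.09 after rescaling on abundant genes. Lgals8, on chromosome 13 from 12439415 to 12464944 on the minus strand, overlaps Heatr1 on the other strand by 875 bases. Heatr1 was at 1760 to 2793 normalized counts, and the sources used here do not say whether reads were counted by strand.

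**Figure D2:**
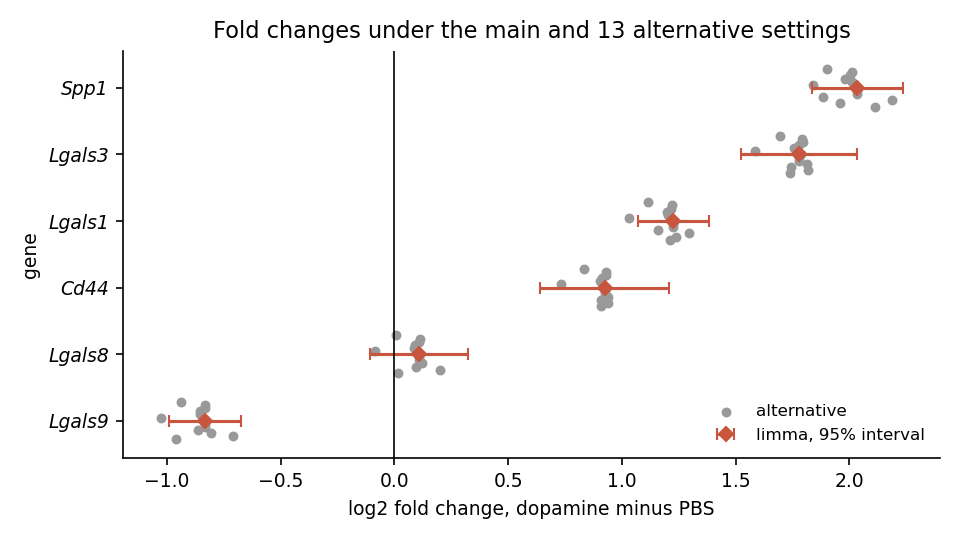
Log2 fold change of each gene, dopamine minus PBS (x axis), with genes on the y axis. Diamonds with lines are limma's values with 95% intervals and grey points are 13 alternative settings. Of the 6 genes, only Lgals8 changes sign, with a range of -0.09 to 0.20.

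Levels were compared between genes as normalized counts per kb of annotated exon. In PBS the order was Lgals1 with a level of 1077 ± 70.5 per kb, Lgals9 with 1071 ± 30.8, Spp1 with 199 ± 29.4, Lgals8 with 106 ± 1.20, Lgals3 with 67.7 ± 2.48 and Cd44 with 17.8 ± 0.29 (SD, n = 2 throughout). Lgals1 and Lgals9 did not differ beyond their spread, and they changed places when the longest transcript was taken as length. The other neighbours were apart by more than their spread. In dopamine the levels per kb were 2519 ± 32.9 for Lgals1, 815 ± 61.7 for Spp1, 603 ± 74.9 for Lgals9, 234 ± 9.39 for Lgals3, 114 ± 10.4 for Lgals8 and 34.0 ± 0.57 for Cd44 (SD, n = 2). Spp1 thus stood above Lgals9, and Lgals3 above Lgals8, where the order had been the reverse in PBS. The place of Spp1 above Lgals9 depends on the length used. With the longest transcript as length the dopamine means were 891 for Spp1 and 812 for Lgals9, and in dopamine B Lgals9 was the higher. In PBS, 98.6% of the 24693 genes with a length had a lower level per kb than Lgals1, 90.1% a lower one than Spp1 and 60.5% a lower one than Cd44. In dopamine these shares were 99.3%, 97.5% and 66.8%.

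**Figure D3:**
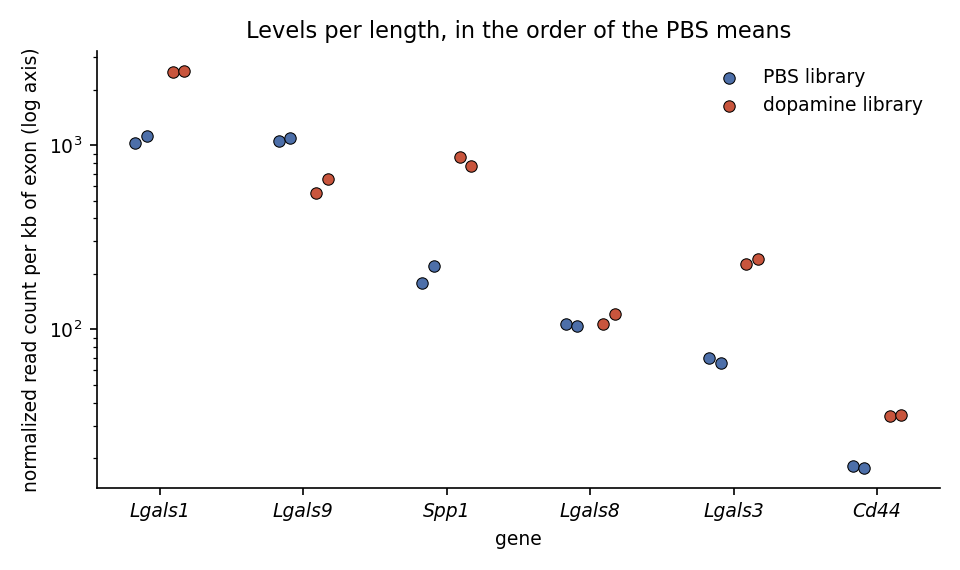
Normalized read count per kb of exon (y axis, log scale) for each gene (x axis), with PBS libraries in blue and dopamine libraries in red. In PBS Lgals1 and Lgals9 are level, with means of 1077 and 1071 per kb, and in dopamine they are at 2519 and 603.

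The makeup of the galectin transcripts changed with these levels. Lgals1 took 45.6% and 47.1% of the summed level per kb of the 4 galectin genes in PBS A and B and 73.9% and 71.4% in dopamine A and B. Lgals9 took 46.6% and 45.7% in PBS and 16.3% and 18.4% in dopamine. The share of Lgals3 was 3.09% and 2.76% in PBS and 6.72% and 6.75% in dopamine. The summed level was 2252 and 2390 per kb in PBS and 3379 and 3559 in dopamine, so the total was higher while the Lgals9 part was lower.

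**Figure D4:**
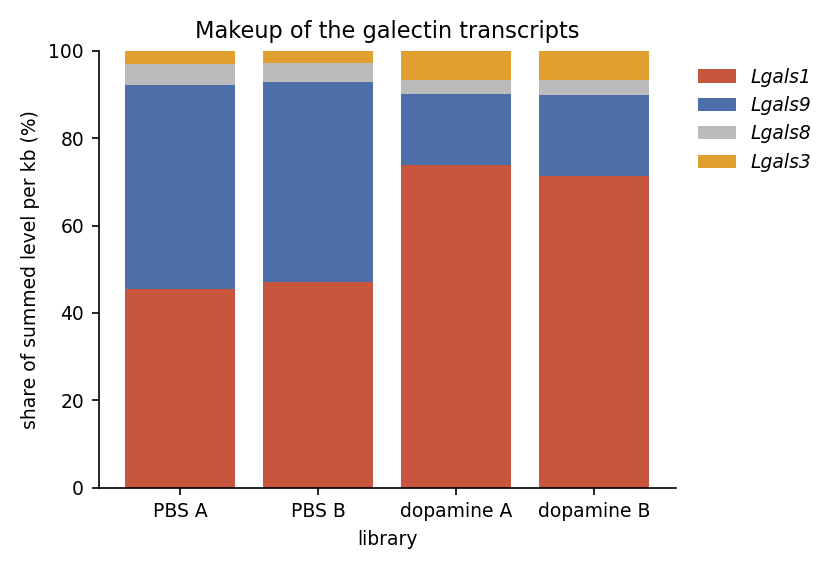
Share of each of the 4 galectin genes in their summed level per kb (y axis, percent) in each library (x axis). Lgals9 takes 45.7% to 46.6% in the PBS libraries and 16.3% to 18.4% in the dopamine libraries, and Lgals1 takes 71.4% to 73.9% in the latter.

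Of 4 other genes of the galectin family in the table, 1 rose and 3 were not called. Lgals7, a galectin of stratified epithelia, was at 44.2 and 46.7 in PBS and 74.8 and 88.4 in dopamine (log2 fold change 0.83, limma adjusted p = 0.00283), a call that ended without dopamine B (0.71) and in DESeq2 (adjusted p = 0.0652). Lgals4, a gut galectin, was at 66.2 and 55.9 and at 53.2 and 66.0, and its groups overlapped. Lgalsl, a galectin-related gene, was at 158 and 183 in PBS and 131 and 145 in dopamine (-0.30, limma adjusted p = 0.146). It was called lower after rescaling on abundant genes (-0.49) and in 1 of 3 edgeR settings, TMM scaling after a low-count filter (-0.44). Grifin, a lens galectin relative, was at 6.94 to 11.5. Lgals2, Lgals6 and Lgals12 were not analysed here.

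Of 13 genes for receptors and other proteins that galectins bind, 4 rose, 1 fell and 8 were not called, with a median log2 fold change of 0.05. After rescaling on abundant genes, 4 rose and 4 fell. Havcr2, encoding the inhibitory receptor TIM-3, went from 47.6 and 46.7 to 252 and 209 (log2 fold change 2.26, SE 0.17, limma adjusted p = 1.5e-14), while the gene of its ligand galectin-9 was lower in the same libraries. Lag3, an inhibitory receptor that galectin-3 binds, went from 698 and 785 to 1129 and 1212 (0.66, SE 0.09, limma adjusted p = 6.97e-08). Nrp1, encoding neuropilin-1, rose by 0.76 on the log2 scale and Tnfrsf9, encoding the galectin-9 partner 4-1BB, fell by 0.50. The major glycoproteins bound by galectin-1 were abundant: Ptprc, encoding CD45, was at 39658 and 41958 in PBS and 41962 and 42731 in dopamine (0.05), and Spn, encoding CD43, was at 5820 and 5809 and at 5419 and 5546 (-0.08). Neither was called, but both were called lower after rescaling on abundant genes, at -0.14 for Ptprc and -0.28 for Spn, and Spn also in 1 of 3 edgeR settings (-0.19). Cd7, another galectin-1 receptor, was at 2.3 to 8.49, a few reads. Lgals3bp, encoding a secreted galectin-3 ligand, was at 379 and 506 and at 381 and 481 (-0.03), so its groups overlapped.

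Enzymes that build the sugar ligands of galectins moved in both directions. Of 26 genes, 6 rose, 8 fell and 12 were not called, where 14.3% of all genes were called higher and 7.00% lower. After rescaling on abundant genes, 2 rose and 10 fell, where 6.89% of all genes were called higher and 12.0% lower. St6gal1, the sialyltransferase whose alpha 2,6-linked sialic acid is known to block galectin-1 binding, went from 1004 and 1011 to 268 and 284 (log2 fold change -1.86, SE 0.10, limma adjusted p = 6.27e-20). The dopamine libraries were far below the PBS libraries, and the call held in all 13 alternatives. Mgat5, which makes the branched N-glycans that galectin-3 prefers, went from 357 and 338 to 219.9 and 221 (-0.65, SE 0.12, limma adjusted p = 3.43e-05). Gcnt1, which makes the core 2 branch of O-glycans on CD43 and CD45, went from 131 and 87.3 to 56.3 and 35.0 (-1.25, SE 0.22, limma adjusted p = 1.88e-05). St3gal4, which adds alpha 2,3-linked sialic acid, rose from 454 and 428 to 655 and 662 (0.58, limma adjusted p = 9.48e-06). Neu1, a lysosomal sialidase that removes it, rose from 321 and 333 to 509.9 and 535 (0.67, limma adjusted p = 2.32e-06).

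Over the 9 lists of partners together 109 genes were tested, of which 28 rose, 17 fell and 64 were not called, with a median log2 fold change of -0.03. Of these, 65 had a mean of at least 100, and 26 of them rose and 11 fell, to be read against the 39.1% and 7.90% of such genes that were called over the whole table. After rescaling on abundant genes, which moved the median log2 fold change of all genes from -0.08 to -0.26, 18 partner genes rose and 31 fell, where 6.89% of all genes were called higher and 12.0% lower.

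**Figure D5:**
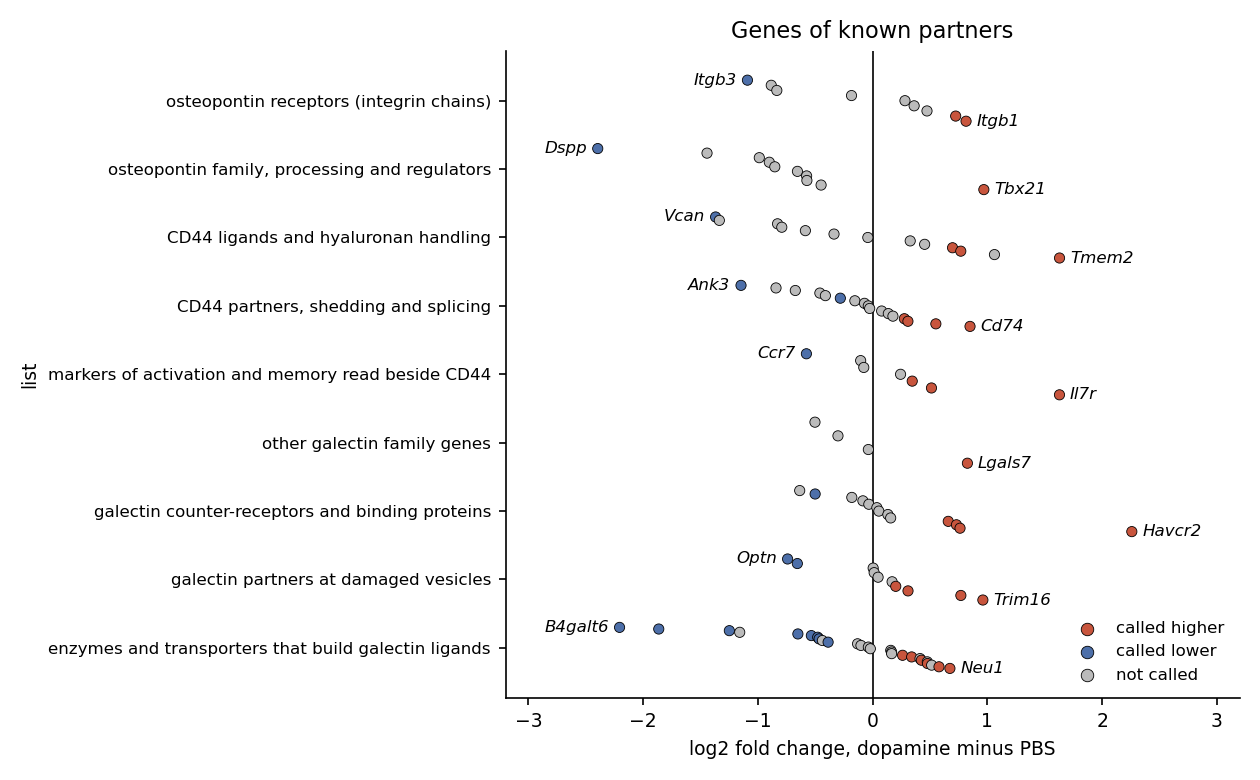
Log2 fold change, dopamine minus PBS (x axis), of each partner gene by list (y axis), one point a gene, red where called higher, blue where called lower and grey where not called. The lists hold calls in both directions except the other galectin genes, where only Lgals7 is called, and of 109 genes 28 are higher and 17 lower. Labels name the outermost called genes.

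Genes with the nearest profile were sought among 8202 genes with a mean of at least 100, by the Euclidean distance between centred log2 values over the 4 libraries. For Spp1 these were Rgs16, a regulator of G protein signalling (distance 0.164), the T cell cytokine gene Il2 (0.172) and Afp, encoding alpha-fetoprotein (0.263). Rgs16 stood at 282 and 301 in PBS and 1212 and 1071 in dopamine. For Lgals3 they were the zinc importer gene Slc39a4 (0.025), Sema7a, encoding a semaphorin (0.083), and Lilrb4a, encoding an inhibitory receptor (0.128). For Lgals1 they were Gstt2 (0.043), the NF-kB subunit gene Nfkb2 (0.075) and the autophagy gene Gabarapl1 (0.076). For Cd44 they were Atxn1 (0.055), the chaperone gene Hsph1 (0.057) and the proton pump gene Atp6v0b (0.057). For Lgals9 they were Fam84a (0.077), Vrk3 (0.078) and Il6st, encoding the gp130 chain of the IL-6 receptor (0.085). For Lgals8, which was not called, they were Tti1 (0.020), Slc17a9 (0.022) and Reep4 (0.023). With 2 libraries in each group, a near profile largely means a similar fold change between dopamine and PBS. Shared regulation was not tested.

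In the authors' deposited table, the log2 fold changes were 2.01 for Spp1, 1.79 for Lgals3, 1.22 for Lgals1, 0.93 for Cd44, 0.11 for Lgals8 and -0.83 for Lgals9. These are DESeq2 values of the same 4 libraries, so they are not an independent check.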

How the data were processed

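Libraries of Th2 cell RNA were made with a TruSeq Stranded mRNA library kit (per the labels). The tools and build named, per the submitters' processing notes, are FastQC 0.11.2, TopHat2 2.0.13, HTSeq 0.6, DESeq2, R 3.6.2 and mm10. Neither annotation nor strand setting is stated there. The deposited table holds, per the file headers, a normalized signal for each library (reads over a size factor), and the authors' log2 fold changes, Wald score and p-values of DESeq2. Whole reads were recovered from 100% of values (tolerance 0.01), so the values were taken as reads over a size factor for each library. There were 0 columns of other samples. Columns carry the numbers 2 and 3, not the titles' replicates 1 and 2, so each was matched to its group only.

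The values being normalized, limma 3.58.1 (R 4.3.3) with a mean-variance trend was fitted to log2(value + 1) of all 26207 genes, unfiltered, 2-sided, with Benjamini-Hochberg adjustment. Its prior carried 42.4 degrees of freedom, so SEs rest mostly on spread pooled over genes. Alternatives were edgeR 4.0.16 (quasi-likelihood) and DESeq2 1.42.0 on recovered reads, other scalings, filters and pseudocounts, a replicate block, and leaving out each library. The tests were tested on simulated data, with the same dispersion for every gene and equal numbers of genes raised and lowered. That setting cannot show how the calls here depend on scaling. Exon lengths came from GENCODE M21. The genes and lists were chosen with earlier results of these data known. Named partners are up to 4 per list with the smallest p, plus a fixed set of well-known ones (1 gene is not reported here and is left out of the lists and counts); the text names markers from each list that bear on a result. The nearest profiles are 3 per gene, predicted models left out.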

Additional observations from a re-analysis of the deposited data

How the results depend on the processing

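Spp1, Cd44, Lgals1, Lgals3 and Lgals9 kept their direction and call in all 13 alternatives, with log2 fold changes of 1.84 to 2.19, 0.73 to 0.94, 1.03 to 1.29, 1.59 to 1.82 and -1.03 to -0.71. Lgals8 was called in none, and turned to -0.085 under rescaling on abundant genes (mean of at least 100). Of all genes 3743 were called higher and 1834 lower. That rescaling gave 1805 and 3149, and for partner genes 18 higher and 31 lower in place of 28 and 17. DESeq2 called 715 lower, and limma on genes of at least 5 CPM 995, where fewer genes were tested. Leaving out a library gave 2152 to 3201 higher and 762 to 1389 lower over all genes, and 19 to 26 higher and 12 to 14 lower over partner genes. The lowest counts over all genes came without PBS A, with dopamine B left out close behind for genes called higher (2242). The lone library left in a group is then assumed to vary like the other group. With the replicate block, which used the number in the column names, 4627 genes were called higher and 2372 lower. The A minus B differences of the groups correlated at r = 0.125 over 11611 genes, and no label says that the number marks a shared source. The block changed the call of no member. Under the longest transcript as length, Lgals1 and Lgals9 changed places in the PBS means. No gene did in the dopamine means, but Spp1 was below Lgals9 in dopamine B. Values of a few reads, such as those of Has1, Has2, Cd7 and Dspp, limit what could be seen there.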

Other observations

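Galectin-3, galectin-8 and galectin-9 are also known to gather on damaged lysosomes and endosomes. Of 10 genes for autophagy and membrane repair proteins read beside them, 4 rose, 2 fell and 4 were not called, with a median log2 fold change of 0.11. Not all of these are known to act with galectins. Sqstm1, encoding the autophagy receptor p62, went from 1366 and 1472 in PBS to 2296 and 2544 in dopamine (log2 fold change 0.77, SE 0.07, limma adjusted p = 3.53e-11). Both dopamine libraries were above both PBS libraries. Calcoco1, another autophagy receptor gene, went from 425 and 461 to 248 and 317 (-0.66, SE 0.12, limma adjusted p = 2.26e-05). Optn, encoding optineurin, was called lower at -0.74, a call that ended without PBS A (-0.66), without dopamine B (-0.62) and in DESeq2 (adjusted p = 0.11). Chmp4b, of the membrane repair machinery, was called higher at 0.31, a call that ended without PBS A (0.24) and after rescaling on abundant genes (0.11). On that scaling 1 gene of the list rose and 2 fell. Calcoco2 was not analysed here.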
